A study of Mus musculus with 9 samples.

Results

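The hexose transporters of the proximal tubule were followed in RNA sequencing of mouse kidney cortex. They are the 6 genes Slc5a2, Slc5a1, Slc5a10, Slc5a11, Slc2a2 and Slc2a5, taken by gene name as members of the sodium-glucose cotransporter (SGLT) family and as the tubular members of the facilitative glucose transporter (GLUT) family, out of 18657 genes in the table. Each library was made from poly(A) RNA pooled from 2 mice. The study's methods describe male mice and littermates on a mixed C57BL/6 and FVB background. Controls (con, 3 libraries of 6 mice) carried floxed Vhl alleles without Cre and received citrate buffer. VHLΔPT mice (2 libraries of 4 mice) carried the same floxed alleles with SGLT2-Cre, a Cre transgene under the Slc5a2 promoter that deletes Vhl in the early segments S1 and S2 of the proximal tubule and does so in a mosaic of cells. The con/STZ and VHLΔPT/STZ groups (2 libraries of 4 mice each) were the same genotypes made diabetic with streptozotocin (STZ), a toxin of pancreatic beta cells, at 100 mg/kg on 2 consecutive days at 12 weeks of age. Tissue was taken 10 weeks later, so all groups carried floxed Vhl, and the driver of the Cre is itself the promoter of one of the 6 genes. The study asked what loss of Vhl in the proximal tubule does to the diabetic kidney.

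Glucose filtered at the glomerulus is taken back by the proximal tubule in a pair of steps. Sodium-coupled carriers of the SGLT family (Slc5a genes) bring sugar in across the brush border, driven by the sodium gradient, and GLUT carriers (Slc2a genes) let it leave to the blood down its concentration gradient. SGLT2 (Slc5a2) takes up the bulk of filtered glucose in S1 and S2, and SGLT1 (Slc5a1), which binds glucose more tightly and also carries galactose, takes up the rest further along. SGLT5 (Slc5a10) carries mannose and fructose, and the carrier named SGLT6 or SMIT2 (Slc5a11) carries myo-inositol. GLUT2 (Slc2a2) is the exit for glucose at the basolateral side, and GLUT5 (Slc2a5) carries fructose.

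The values are normalized counts, gene counts that the authors quantile normalized which sets the totals of the libraries nearly equal (21951722 to 21952234) and hides how deeply each was sequenced. The proximal tubule marker Lrp2 (megalin) was at 36699 to 72919 and Slc34a1, the phosphate carrier of the brush border, at 110088 to 154892, so the cortex held proximal tubule in each library. Vhl was at 522 to 555 in con, 434 and 470 in VHLΔPT, 501 and 527 in con/STZ and 516 in both VHLΔPT/STZ libraries, counted over the whole gene and all cells of the cortex. A pair of libraries stood apart from their labels or their group. In con/STZ 2 Xist, which is transcribed from the silenced X of female cells, was at 3205 against 0 to 6.22 in the others, although the methods give male mice, and the sum of 4 Y-linked genes was 1501 against 1968 to 3262. The library VHLΔPT/STZ 1 lay at 4.1 on the first principal component (39.3% of the variance), between VHLΔPT (-19.2 and -6.6) and con/STZ (40.7 and 41.5), whereas VHLΔPT/STZ 2 lay at 33.5. In bulk cortex, fewer cells of a type and less RNA per cell cannot be told apart.

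All 6 genes are protein coding (GRCm38, GENCODE M21). Slc5a1 (ENSMUSG00000011034) lies at chr5:33104219-33162870, Slc5a2 (ENSMUSG00000030781) at chr7:128265657-128272430 and Slc5a11 (ENSMUSG00000030769) at chr7:123214780-123273253, each on the plus strand. Slc5a10 (ENSMUSG00000042371) lies at chr11:61672781-61720826 on the minus strand, Slc2a2 (ENSMUSG00000027690) at chr3:28697903-28731359 and Slc2a5 (ENSMUSG00000028976) at chr4:150119283-150144169, both on the plus strand. Their merged exons span 2365 bases (Slc5a10) to 5755 bases (Slc2a2). Exons of neighbours on the opposite strand overlap with those of a pair of members: BC017158 shares 597 exon bases with Slc5a2 (20.61% of its exon bases) and Fam83g shares 393 with Slc5a10 (16.62%). Whether the counting used strand is not given in the sources used here, so reads from the shared bases cannot be assigned with certainty. The mean normalized counts of these neighbours were 520.9 and 528.3, low beside their partners.

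RefSeq promoter windows (GRCm38.p6, 250 bases before to 50 bases after a start) were matched for 5 of the 6 genes, as 6 windows, since Slc5a10 has a window at each of its starts. Slc5a2 was not matched. The windows of Slc5a1 (chr5:33103969-33104268, plus strand), Slc5a10 (chr11:61720750-61721049, minus strand) and Slc2a2 (chr3:28697653-28697952, plus strand) are shown because these genes were all called higher in con/STZ. Both strands were searched for ACGTG and GCGTG, the core letters of the hypoxia response element that HIF binds, and for AGGTCA, the core letters bound by HNF4 and other nuclear receptors. Matches are in capitals.
Slc5a1: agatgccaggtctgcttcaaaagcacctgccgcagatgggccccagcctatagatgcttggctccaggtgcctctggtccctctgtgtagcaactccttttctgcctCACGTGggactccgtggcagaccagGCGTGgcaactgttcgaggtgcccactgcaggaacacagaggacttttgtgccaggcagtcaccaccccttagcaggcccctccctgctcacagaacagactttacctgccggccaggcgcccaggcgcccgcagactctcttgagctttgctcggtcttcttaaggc
Slc5a10: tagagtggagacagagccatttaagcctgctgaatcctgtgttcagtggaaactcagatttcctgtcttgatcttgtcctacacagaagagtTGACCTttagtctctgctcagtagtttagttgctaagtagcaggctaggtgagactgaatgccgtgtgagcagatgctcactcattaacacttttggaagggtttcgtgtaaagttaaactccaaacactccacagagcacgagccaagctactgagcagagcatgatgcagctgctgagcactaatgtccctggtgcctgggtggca
Slc2a2: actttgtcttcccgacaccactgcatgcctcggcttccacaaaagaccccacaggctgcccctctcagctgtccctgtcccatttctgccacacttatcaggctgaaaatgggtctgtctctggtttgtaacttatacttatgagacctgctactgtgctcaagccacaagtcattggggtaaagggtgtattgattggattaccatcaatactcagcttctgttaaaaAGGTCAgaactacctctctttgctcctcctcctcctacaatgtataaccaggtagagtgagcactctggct
In Slc5a1, ACGTG matched from -142 on the plus strand and from -143 on the minus strand, which overlap because CACGTG reads alike on both strands, and GCGTG matched at -118. In Slc5a10 the minus strand matched AGGTCA at -158 (read as TGACCT). Slc2a2 held AGGTCA at -21 and neither of the hypoxia response cores. In the windows not shown, Slc5a11 held AGGTCA at -43 on the minus strand, and neither the Slc2a5 window nor the second Slc5a10 window held a match. Of all 32851 windows, 19.6% hold ACGTG, 32.4% GCGTG and 16.3% AGGTCA. A match describes letters and shows no binding.

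In control cortex, the brush border carriers for glucose and for mannose and fructose were the most abundant of the 6 mRNAs per length. Per 1000 exon bases, Slc5a2 had a normalized count of 2920 ± 364 (SD, n = 3) and Slc5a10 of 2775 ± 174, and their ranges overlapped. Slc2a5 followed at 1113 ± 244, apart from its neighbours in the order on both sides. Slc2a2 (620 ± 58.7), Slc5a11 (526 ± 75.7) and Slc5a1 (494 ± 66.5) came last, with ranges that overlapped from each to the next. The order differed between groups. In VHLΔPT (n = 2), Slc5a2 at 3315 ± 123 stood clear of Slc5a10 at 2367 ± 270, and Slc2a2 at 885 ± 9.05 came next, beside Slc2a5 at 823 ± 439, whose libraries spread on both sides of it. In con/STZ (n = 2), Slc5a10 led at 4449 ± 238 and overlapped with Slc5a2 at 3919 ± 581, then came Slc2a2 (1107 ± 60.2), Slc2a5 (914 ± 61.4), Slc5a1 (756 ± 29.3) and Slc5a11 (675 ± 15.0), each apart from the next. In VHLΔPT/STZ (n = 2) only the leading pair, Slc5a10 (3773 ± 1467) and Slc5a2 (3325 ± 72.8), stood clear of the rest, and the other members ran from 1103 ± 162 (Slc2a5) to 645 ± 207 (Slc5a11) with overlap at every step.

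**Figure D1:**
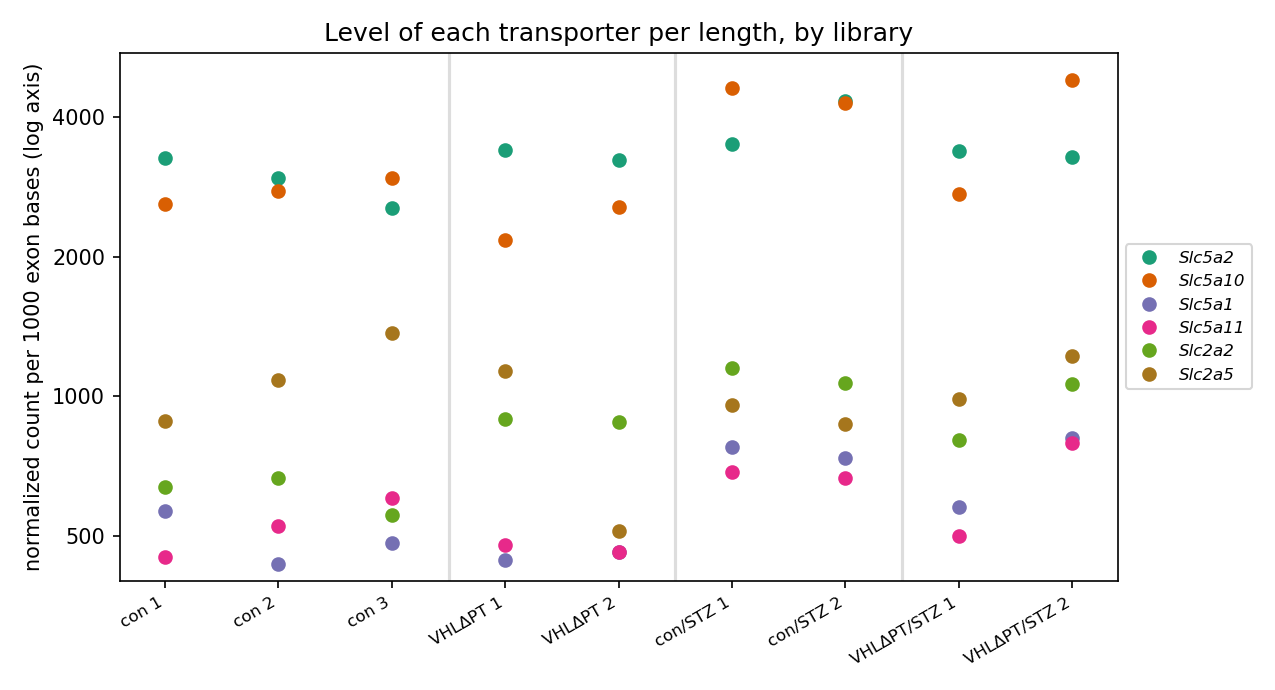
Normalized count per 1000 exon bases (log axis) of the 6 transporters in each of the 9 libraries, 1 point per gene and library, with Slc5a1 hidden under Slc5a11 in VHLΔPT 2 (both 462). Slc5a2 and Slc5a10 lie above the other members in all libraries, and Slc5a10 ranges from 2176 in VHLΔPT 1 to 4810 in VHLΔPT/STZ 2.

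Within single libraries the balance between carriers also differed, as ratios of counts per base. Slc5a10 to Slc5a2 was 0.797, 0.938 and 1.162 in con, 0.64 and 0.793 in VHLΔPT, 1.316 and 0.989 in con/STZ, and 0.81 and 1.469 in VHLΔPT/STZ. The VHLΔPT values thus lay below all con values, and the STZ groups each held 1 library inside the con range. Slc5a1 to Slc5a2, the ratio of the late to the early glucose carrier, was 0.147 to 0.19 in con, 0.13 and 0.143 in VHLΔPT, 0.221 and 0.17 in con/STZ, and 0.171 and 0.248 in VHLΔPT/STZ. The fructose carrier Slc2a5 exceeded the glucose exit Slc2a2 per base in all con libraries (1.39, 1.622 and 2.474), whereas both con/STZ libraries had ratios under even (0.832 and 0.817). For VHLΔPT this ratio was 1.271 and 0.583, and for VHLΔPT/STZ 1.225 and 1.145. These ratios were not tested.

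**Figure D2:**
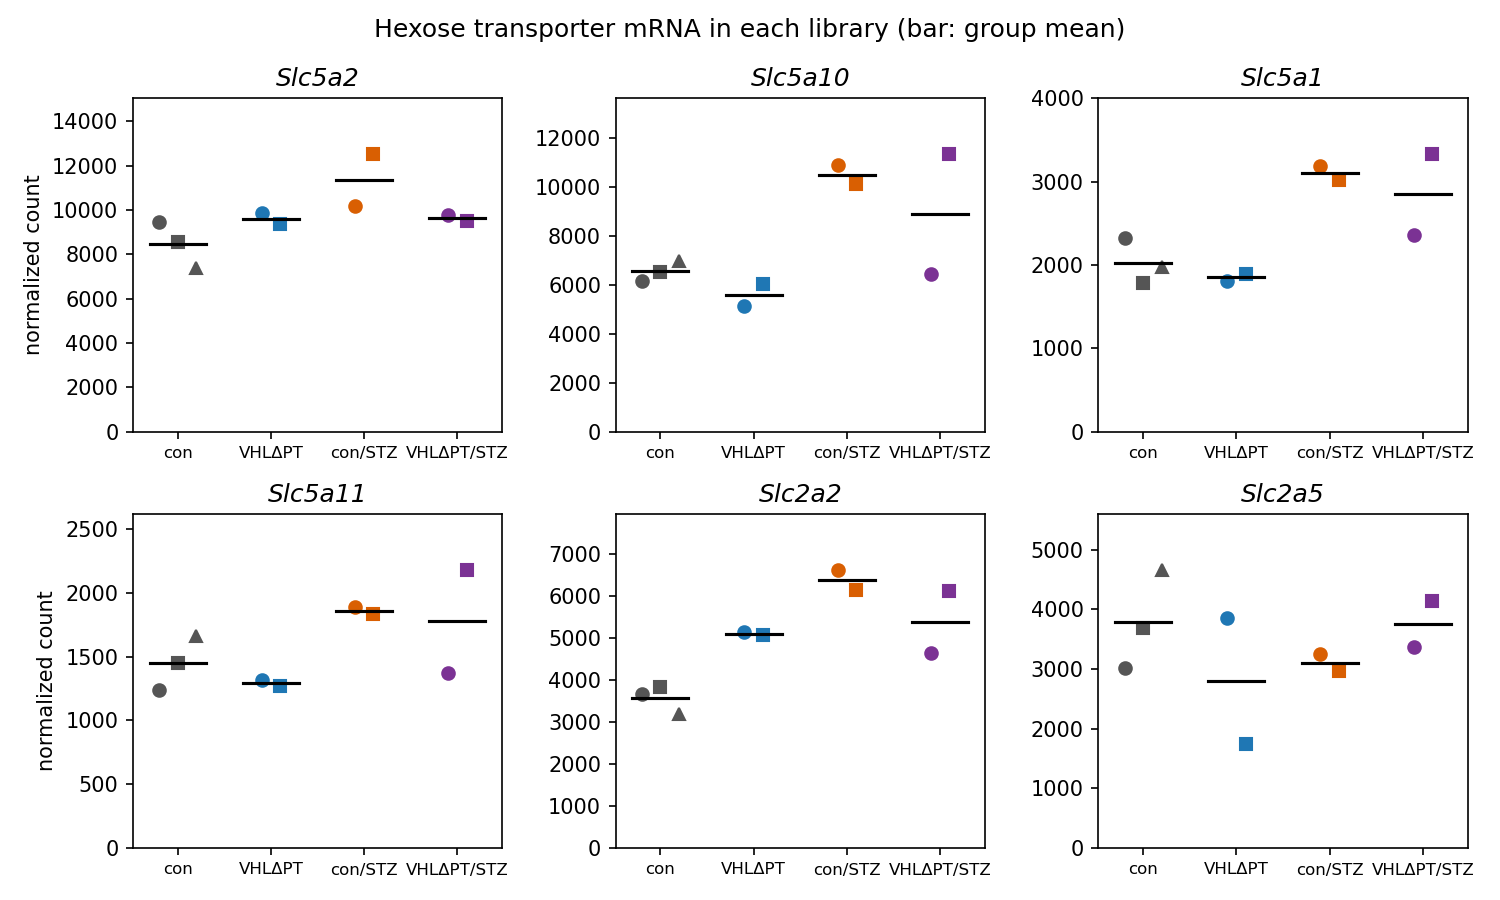
Normalized count of each transporter by group, 1 point per library (circle for library 1, square for 2, triangle for 3) with a bar at the group mean, on axes from 0. Slc2a2 is above the con range in all 6 other libraries, and the VHLΔPT/STZ libraries lie far apart for Slc5a10 (6470 and 11377) and Slc5a11 (1375 and 2181).

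In STZ diabetes with intact Vhl, mRNA was higher for both brush border glucose carriers, the mannose and fructose carrier and the basolateral glucose exit. These values are mRNA alone, and the paper reported SGLT2 protein as unaltered by blot and staining. In con/STZ, Slc2a2, Slc5a10, Slc5a1 and Slc5a2 were higher than in con by 1.79-fold, 1.60-fold, 1.54-fold and 1.34-fold. Slc5a11 and Slc2a5 did not pass the test. Thus 4 of 6 members were called higher and 0 lower at an adjusted p under 0.05 (limma over 14437 genes with a mean of at least 10, Benjamini-Hochberg), beside 28.3% of all genes (14.1% higher and 14.1% lower). The median log2 change of the 6 members was 0.52, and that of all genes -0.019.

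Slc2a2 changed most among the 6. Its normalized counts were 3670, 3841 and 3190 in con and 6617 and 6126 in con/STZ. Both diabetic libraries were far above the con range, with a log2 change of 0.84 (standard error 0.13, adjusted p = 0.0041, limma). The call held in all 19 alternatives that were run, with log2 changes of 0.74 to 0.90.

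For Slc5a10 the values were 6158, 6552 and 6981 in con and 10920 and 10124 in con/STZ. The groups did not overlap, and the change on the log2 scale was 0.68 ± 0.20 (standard error) with an adjusted p of 0.0371 (limma). Slc5a1, the high-affinity glucose carrier, was at 2319, 1780 and 1977 in con and at 3189 and 3019 in con/STZ. Again the groups did not overlap, with a log2 change of 0.62 ± 0.16 (standard error) and an adjusted p of 0.0194 (limma). Slc5a2 was at 9465, 8553 and 7361 in con and at 10164 and 12544 in con/STZ. Both con/STZ libraries were above the con range, con/STZ 1 by a small margin, with a log2 change of 0.42 ± 0.13 (standard error) and an adjusted p of 0.0410 (limma).

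These 3 calls were less firm than that of Slc2a2. They held in 9 (Slc5a2), 11 (Slc5a10) and 15 (Slc5a1) of 19 alternatives. Slc5a2 was not called when only the groups compared were fitted. Without con/STZ 2, the library with Xist, Slc5a2 was at a log2 change of 0.27 (adjusted p = 0.269), Slc5a10 at 0.74 (adjusted p = 0.121) and Slc5a1 at 0.66 (adjusted p = 0.0831), and without con/STZ 1 they were at 0.58 (adjusted p = 0.0612), 0.63 (adjusted p = 0.174) and 0.58 (adjusted p = 0.115), from limma with a lone library in the group. They were also not called without con 2 (adjusted p of 0.0777, 0.0772 and 0.0523), and Slc5a2 and Slc5a10 were not called without con 3 or without either VHLΔPT library, nor Slc5a10 without con 1. All 3 were called after the trend of each library with gene length was removed, with log2 changes of 0.56 (Slc5a2), 0.89 (Slc5a10) and 0.64 (Slc5a1).

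Slc5a11, the myo-inositol carrier, was at 1242, 1449 and 1660 in con and at 1891 and 1833 in con/STZ. The groups did not overlap, but the log2 change of 0.37 (95% interval -0.05 to 0.79, adjusted p = 0.164, limma) did not pass. Slc2a5, the fructose carrier, was at 3016, 3683 and 4664 in con and at 3256 and 2960 in con/STZ. Here the groups overlapped, with a log2 change of -0.26 (95% interval -0.95 to 0.42, adjusted p = 0.535, limma). In all, 5 of 6 members were above the con range in both con/STZ libraries, beside 28% of all genes, and 0 of 6 were below it in both, beside 30%.

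**Figure D3:**
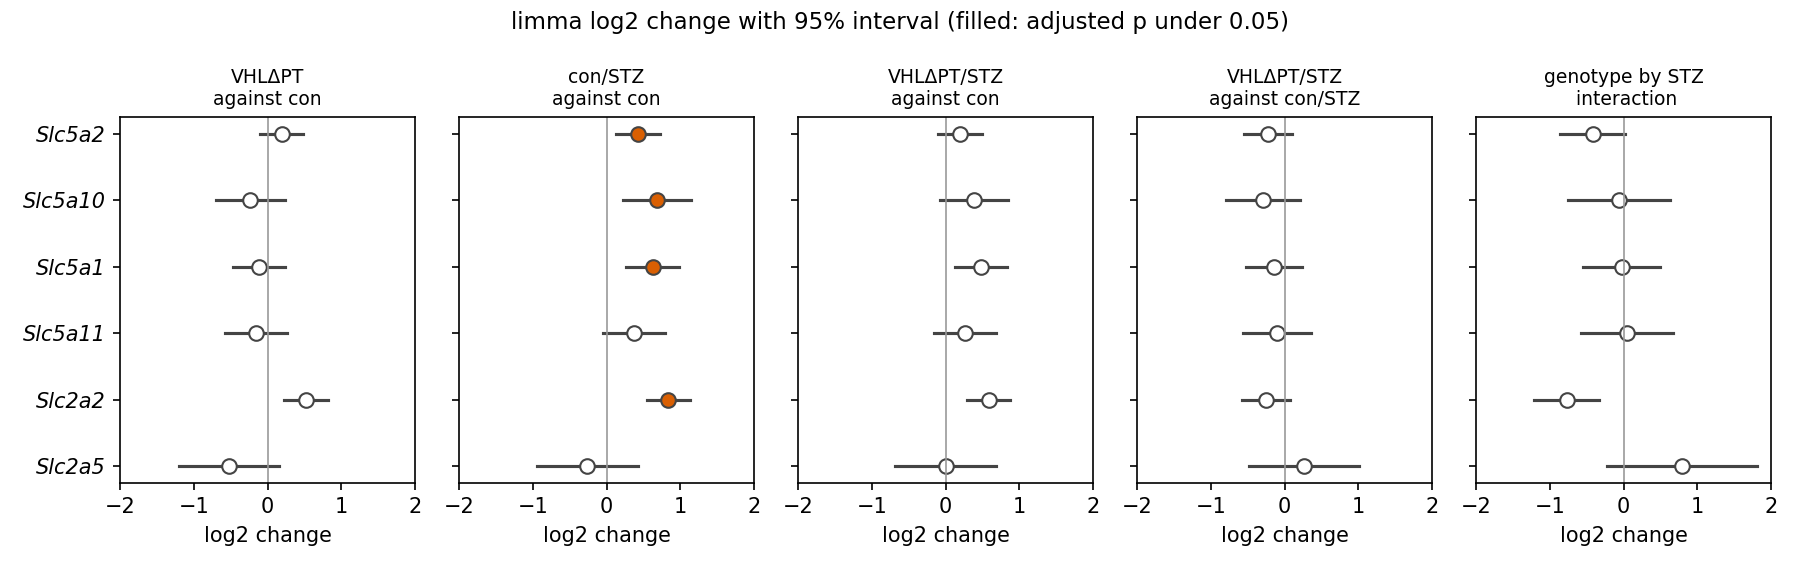
Log2 change of each transporter (points, limma, on log2 of the normalized count + 1) with its 95% interval in 4 comparisons of groups and in the interaction of genotype and STZ. Filled points have an adjusted p under 0.05 and are found in con/STZ against con alone, for Slc5a2, Slc5a10, Slc5a1 and Slc2a2.

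In VHLΔPT without STZ no carrier passed the test, and the highest log2 change was that of the glucose exit Slc2a2, just short of the threshold. Called were 0 of 6 members (limma, with 1 at an unadjusted p under 0.05), beside 3.09% of all genes (2.43% higher and 0.658% lower), and their median log2 change was -0.14 against -0.022 for all genes. Slc2a2 was at 5130 and 5057 in VHLΔPT, above each con library, and its log2 change of 0.52 (standard error 0.13, 95% interval 0.22 to 0.82) had an adjusted p of 0.0615 (limma). It passed in only 3 of 19 alternatives. These were library weights (adjusted p = 0.0322, limma) and leaving out either VHLΔPT/STZ library, neither of which is in this comparison. Over all 19 its log2 change ran from 0.42 to 0.57. Slc5a10 was at 5146 and 6051, below the con range, with a log2 change of -0.23 (95% interval -0.70 to 0.23, adjusted p = 0.495). Each direction without overlap thus held 1 of 6 members, beside 22.6% of all genes above and 24.8% below con.

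The other carriers overlapped with con. Slc5a2, whose promoter drives the Cre, was at 9856 and 9351, a log2 change of 0.19 (95% interval -0.11 to 0.49, adjusted p = 0.377, limma). Slc5a1 was at 1814 and 1894 and Slc5a11 at 1318 and 1273, log2 changes of -0.12 (95% interval -0.47 to 0.23) and -0.15 (95% interval -0.58 to 0.27). The VHLΔPT libraries disagreed for Slc2a5, at 3855 and 1743, and its log2 change was -0.52 with a wide interval of -1.21 to 0.16. Without VHLΔPT 2 that change was 0.05, so its sign rested on this library.

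In VHLΔPT/STZ the group means of Slc2a2, Slc5a10, Slc5a1, Slc5a11 and Slc5a2 lay between those of con and con/STZ. That of Slc2a5 was near con (3753 against 3788). How many of all genes lay between in this way was not counted. The libraries of VHLΔPT/STZ were far apart for Slc5a10, Slc5a11, Slc5a1 and Slc2a2. Against con, 0 of 6 passed (limma, with 2 at an unadjusted p under 0.05, Slc5a1 and Slc2a2), beside 1.4% of all genes (0.935% higher and 0.464% lower), and the median log2 change was 0.33 against -0.014 for all genes. Slc2a2 was at 4641 and 6122, both above con, with a log2 change of 0.58 (standard error 0.13, adjusted p = 0.0569). Slc5a1 was at 2364 and 3337, the first only just above the highest con library, with a log2 change of 0.48 (standard error 0.16, adjusted p = 0.114). Slc5a10 was at 6470 and 11377. Its first library sat inside the con range and its second was the highest of all 9, for a log2 change of 0.39 ± 0.20 (standard error, adjusted p = 0.272).

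Slc5a11 split in the same way, at 1375 and 2181, with a log2 change of 0.27 (95% interval -0.16 to 0.69). Slc5a2 did not split. It was at 9782 and 9484, both slightly above the highest con library, and its log2 change was 0.19 (95% interval -0.10 to 0.49). Slc2a5 was at 3362 and 4144, inside the con range, with a log2 change of 0.00 (95% interval -0.68 to 0.69). Above con in both libraries were 3 of 6 members, beside 19% of all genes, and below it 0 of 6, beside 20.4%. Without VHLΔPT/STZ 1, against con, Slc5a10 had a log2 change of 0.80 (adjusted p = 0.0256), Slc2a2 of 0.78 (adjusted p = 0.0238) and Slc5a1 of 0.73 (adjusted p = 0.0438), and these 3 of 6 passed. Without VHLΔPT/STZ 2 the same changes were -0.02 (adjusted p = 0.956), 0.38 (adjusted p = 0.190) and 0.23 (adjusted p = 0.433).

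Set directly against con/STZ, no member of the VHLΔPT/STZ group passed (0 of 6, limma, with 0 at an unadjusted p under 0.05), beside 0.00693% of all genes, which is 1 gene. The log2 changes ran from -0.29 (Slc5a10, 95% interval -0.80 to 0.22) through -0.26 (Slc2a2, -0.58 to 0.07), -0.23 (Slc5a2, -0.56 to 0.10), -0.14 (Slc5a1, -0.53 to 0.24) and -0.10 (Slc5a11, -0.57 to 0.36) to 0.27 (Slc2a5, -0.49 to 1.02). Both libraries of VHLΔPT/STZ were below both of con/STZ for Slc5a2 and Slc2a2 (2 of 6, beside 18.9% of all genes), for Slc2a2 by a margin of 6122 to 6126, and above them for Slc2a5 (1 of 6, beside 18.7%). Without VHLΔPT/STZ 1 the changes of Slc5a10, Slc5a1 and Slc5a11 were 0.11, 0.11 and 0.23, the opposite sign.

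STZ was also compared between Vhl-deleted groups. Against VHLΔPT, 0 of 6 members of VHLΔPT/STZ passed (limma, with 2 at an unadjusted p under 0.05, Slc5a1 and Slc5a10), beside 0.00693% of all genes. Slc5a10 had a log2 change of 0.62 ± 0.22 (standard error, adjusted p = 0.398), Slc5a1 of 0.60 ± 0.17 (adjusted p = 0.375) and Slc5a11 of 0.42 ± 0.20 (adjusted p = 0.480). These 3 of 6 were above VHLΔPT without overlap, beside 23.6% of all genes, and 0 of 6 were below it, beside 23.1%. For Slc2a2 and Slc5a2 the changes were 0.07 (95% interval -0.26 to 0.39) and 0.00 (95% interval -0.32 to 0.33). Without VHLΔPT/STZ 1, Slc5a10 (1.03, adjusted p = 0.02) and Slc5a1 (0.85, adjusted p = 0.0455) passed. Without VHLΔPT/STZ 2 they were at 0.21 and 0.35 and did not pass.

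The interaction of genotype and STZ asks whether the diabetic change differed between genotypes. None passed (0 of 6, limma, with 1 at an unadjusted p under 0.05), beside 1.72% of all genes (0.305% with a positive and 1.41% with a negative interaction). Slc2a2 came nearest, with an interaction of -0.77 on the log2 scale (standard error 0.19, adjusted p = 0.0642), from an STZ change of 0.84 with intact Vhl and 0.07 with deleted Vhl. With library weights it passed (-0.74, adjusted p = 0.0499), and over the alternatives the adjusted p ran from 0.0499 to 0.192. For Slc5a2 the interaction was -0.42 (95% interval -0.86 to 0.02), for Slc2a5 0.79 (-0.23 to 1.81), and for Slc5a1, Slc5a10 and Slc5a11 -0.02 (-0.55 to 0.50), -0.06 (-0.75 to 0.63) and 0.05 (-0.58 to 0.68).

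Other measures moved with the transporters in the diabetic libraries. The 4 genes Acsm3, Cyp2j13, Cyp7b1 and Slco1a1, which are higher in the kidney of male mice, summed to 49904 to 60718 in con, 66546 and 59413 in VHLΔPT, 16479 and 10449 in con/STZ, and 45326 and 11191 in VHLΔPT/STZ. All 4 were called lower in con/STZ, and none of the 4 was called without con/STZ 1 or without con/STZ 2. The 3 libraries with low sums were also the 3 highest for Slc5a10 (10124 to 11377) and for Slc5a1 (3019 to 3337). They were likewise the 3 highest for Slc5a11 (1833 to 2181) and for Slc2a2 (6122 to 6617). VHLΔPT/STZ 1 had a sum of 45326, under the con range but above the low sums. It was near con for Slc5a10, Slc5a1 and Slc5a11, and above con for Slc2a2 (4641). Slc5a2 showed no such divide, since VHLΔPT/STZ 2 was at 9484 with a low sum. Nor did Slc2a5, at 2960 to 4144 in the 3 libraries with low sums. Slc7a12 and Prlr, higher in the kidney of female mice, summed to 165 to 316 in con, 143 and 318 in VHLΔPT, 2684 and 4861 in con/STZ, and 948 and 1645 in VHLΔPT/STZ. Both were called higher in con/STZ, in 19 of 19 alternatives, with log2 changes of 5.51 to 6.20 (Slc7a12) and 2.28 to 3.66 (Prlr). The part of these genes in the transporter changes was not tested.

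**Figure D4:**
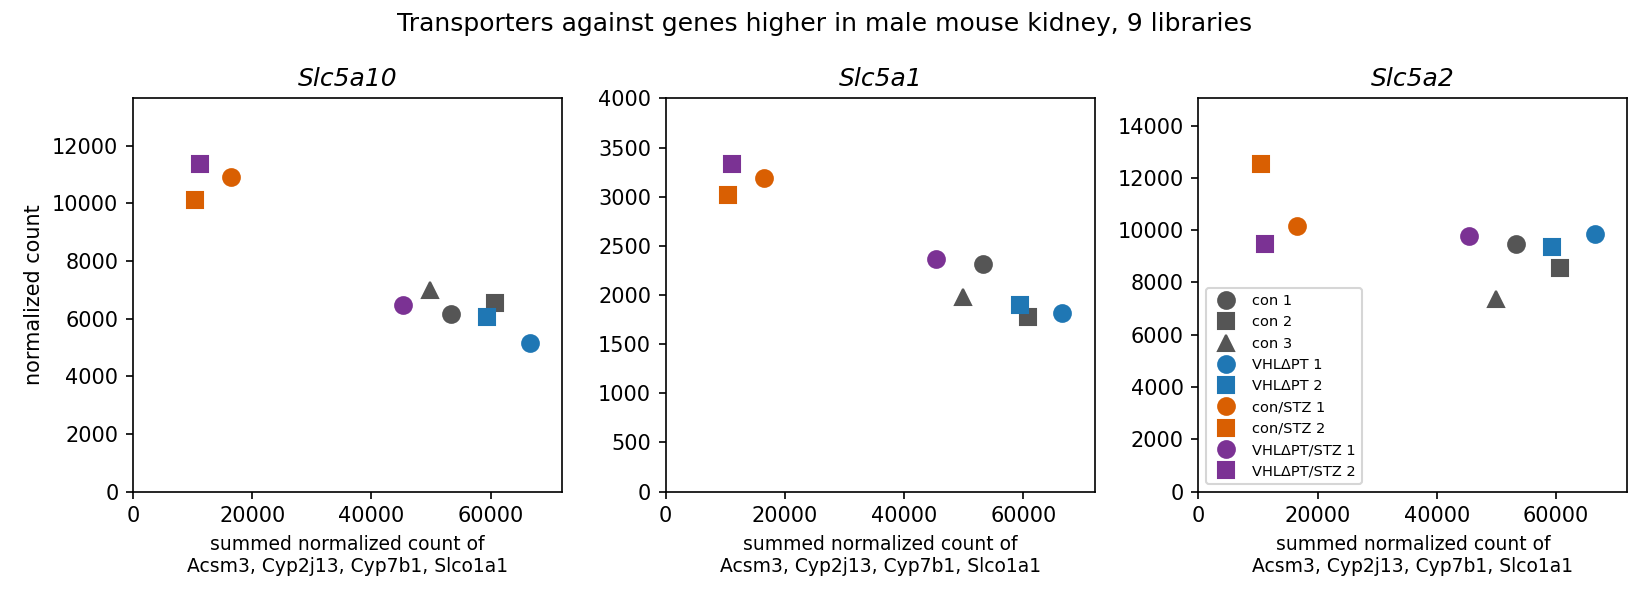
Normalized count of Slc5a10, Slc5a1 and Slc5a2 (vertical axes) against the summed normalized count of 4 genes that are higher in male mouse kidney (horizontal axes), 1 point per library. For Slc5a10 and Slc5a1, both con/STZ libraries and VHLΔPT/STZ 2 lie at sums of 10449 to 16479 with the highest transporter values, and VHLΔPT/STZ 1 lies near con.

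Segment markers also differed, beside 14.1% of all genes called higher and 14.1% lower in con/STZ. Of 5 markers of the whole proximal tubule, 4 (Aqp1, Cubn, Lrp2 and Slc9a3) were called higher, with a median log2 change of 0.74, of which only Cubn was also called both without con/STZ 1 and without con/STZ 2. In con/STZ against con, 3 of 6 markers of the early segments S1 and S2 (Gatm, Slc4a4 and Slc5a12) were called higher and 1 (Slc22a6) lower, and their sum was 128973 and 135880 against 88747 to 111423 in con. Gatm and Slc22a6 were not called without con/STZ 1 or without con/STZ 2, nor Slc5a12 without con/STZ 1, and Slc4a4 was called in 19 of 19 alternatives. The sum for S1 and S2 was also above the con range in VHLΔPT (130388 and 111855, the latter just above) and in VHLΔPT/STZ (126059 and 118999). Of 6 markers of the late segment S3 in con/STZ, 3 (Cyp7b1, Slc22a7 and Slc7a13) were called lower and 1 (Slc6a18) higher. Their sum was 62868 and 59636 against 74108 to 86840 in con. Cyp7b1, Slc7a13 and Slc6a18 were not called without con/STZ 1 or without con/STZ 2, nor Slc22a7 without con/STZ 1. Cyp7b1 is also among the genes higher in males. Slc5a1, a carrier of the late tubule, was thus higher in the libraries where the S3 sum was lower. In VHLΔPT/STZ the S3 sum was 82716 and 54427, and Slc5a1 was 2364 and 3337. The lowest S3 sums lay in the same libraries as the low sums of the genes higher in males. Some distal markers were higher too. The sum for the thick ascending limb was 121030 and 107649 in con/STZ against 63524 to 72335 in con, and 2 of its 4 markers (Ptger3 and Slc12a1) were called higher. For the distal convoluted and connecting tubule the sum was 49251 and 50537 against 17576 to 23596, and 3 of 4 (Calb1, Slc12a3 and Trpm6) were called higher. The remaining marker, Pvalb, went the other way and was not called (1439 to 2193 in con, 1467 and 1182 in con/STZ, log2 change -0.38). The 5 calls among these distal tubule markers held in 19 of 19 alternatives. Of principal cell markers, 1 of 4 (Scnn1g) was called higher and 0 lower. Of intercalated cell markers, 1 of 4 (Slc4a1) was called higher and 0 lower. The calls of Scnn1g and Slc4a1 held in 16 and 17 of 19 alternatives. The part of segment markers in the transporter results was not tested. The markers of tubular injury Havcr1, Krt20, Lcn2 and Vcam1 summed to 1211 to 1795 in con and 695 and 1293 in con/STZ.

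Among the remaining SLC2 and SLC5 carriers, the myo-inositol carrier Slc5a3 (SMIT1) and the lactate carrier Slc5a12 changed most. In con/STZ, 7 of the 15 tested were called higher and 0 lower, beside 14.1% of all genes in each direction, with a median log2 change of 0.50. Slc5a4b was the gene of the 16 listed that fell under the mean of 10. Slc5a3 was at 1816, 1992 and 1909 in con and 6211 and 5450 in con/STZ, a log2 change of 1.61 (standard error 0.10, adjusted p = 0.00047, limma). It was also called in VHLΔPT (2789 and 2689, log2 change 0.52, adjusted p = 0.0429) and in VHLΔPT/STZ against con (3791 and 3226, 0.88, adjusted p = 0.0253). Its interaction was -1.26 (adjusted p = 0.0286), so the STZ change of this carrier was smaller with deleted Vhl. The call in con/STZ held in 19 of 19 alternatives, but those in VHLΔPT, in VHLΔPT/STZ and of the interaction held in 8 of 19, 7 of 19 and 8 of 18, with adjusted p up to 0.264, 0.128 and 0.132.

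Slc5a12 was at 5282, 6448 and 4368 in con and 14270 and 11250 in con/STZ, a log2 change of 1.26 (adjusted p = 0.0058, limma). The other risers in con/STZ were the proton-coupled myo-inositol carrier Slc2a13 (1.15), the mannose carrier Slc5a9 (0.88), the urate carrier Slc2a9 (0.56), Slc2a12 (0.54) and Slc2a1 (0.48), which encodes GLUT1. Slc2a1 was at 976 to 1140 in con and 1504 and 1400 in con/STZ. It was at 1022 and 1263 in VHLΔPT, where its log2 change was 0.12 (adjusted p = 0.553, limma). These are mRNA values of whole cortex. The paper reported more total GLUT1 protein in con/STZ. By staining it saw added GLUT1 in the proximal tubule of VHLΔPT and, less so, of VHLΔPT/STZ. In VHLΔPT the lactate carrier Slc5a8 (6804 and 6599 against 4059 to 4368 in con) was called beside Slc5a3, with a log2 change of 0.69 (adjusted p = 0.0370, limma), so 2 of 15 were called higher and 0 lower, beside 2.43% and 0.658% of all genes. The Slc5a8 call held in 8 of 19 alternatives (adjusted p up to 0.246). Without con/STZ 2, the rises of Slc5a9, Slc2a13, Slc2a9, Slc2a12 and Slc2a1 were not called, nor were they without con/STZ 1 apart from Slc5a9, and Slc5a12 was not called without con/STZ 1.

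Enzymes that handle hexoses moved less. Of 13 tested, Hk1 and Pgm1 were called higher in con/STZ and Pgm2 lower (limma), beside 14.1% of all genes in each direction. The median log2 change of the 13 was 0.09. Hk1, a hexokinase, was at 2805 to 2850 in con and at 4641 and 4679 in con/STZ, a log2 change of 0.72 (standard error 0.09, adjusted p = 0.00228). The ketohexokinase Khk, first enzyme of fructose breakdown, was at 18006 to 21775 in con and 16966 and 16775 in con/STZ, with an adjusted p of 0.288. The Hk1 call held in 19 of 19 alternatives, and that of Pgm2 in 8. Neither Pgm1 nor Pgm2 was called without con/STZ 1 or without con/STZ 2. Of 12 partners and regulators of SGLT carriers, 1 was called higher and 1 lower in con/STZ, beside 14.1% of all genes in each direction. The kinase Sgk1 was higher (2753 to 5522 in con, 9432 and 8482 in con/STZ, log2 change 1.13, adjusted p = 0.0193, limma). The scaffold Slc9a3r1 (NHERF1) was lower (log2 change -0.36, adjusted p = 0.0170, limma). Neither of this pair was called without con/STZ 1 or without con/STZ 2, and with the length trend removed Slc9a3r1 was at -0.10 (adjusted p = 0.52). The SGLT2 partner Pdzk1ip1 (MAP17) was at 11829 to 13583 in con and 11209 and 13113 in con/STZ, a log2 change of -0.03. Hnf4a, a transcription factor of the proximal tubule, had a log2 change of 0.11 in con/STZ (adjusted p = 0.576).

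Across the 9 libraries, the members fell into different patterns. Slc5a10 and Slc5a11 had the highest correlation of log2 values (Pearson's r = 0.935, n = 9), followed by Slc5a1 and Slc5a10 (r = 0.914), whereas Slc5a2 correlated more with Slc2a2 (r = 0.757) than with Slc5a10 (r = 0.385). Slc2a5 had its highest value with Slc5a11 (r = 0.423) and was at -0.359 with Slc5a2. These values describe libraries that share the group structure and the normalization. The genes with the most similar pattern to Slc5a10 were the mitochondrial enzymes Idh2 (r = 0.994) and Acaa2 (r = 0.986) and, between them, Apmap (r = 0.991). For Slc5a11 they were Slc25a5 (0.973), the mitochondrial carrier of adenine nucleotides, Tkt (0.966), the transketolase, and Hfe (0.962). Slc5a1 was nearest to Tlk2 (0.989), Fgfr1op (0.980) and Rab30 (0.975), Slc5a2 to Mxd4 (0.971), Klhl3 (0.968) and Susd6 (0.967), and Slc2a2 to Madd (0.986), Fbxo30 (0.979) and Dip2c (0.978). No gene came as near to Slc2a5, whose nearest were Tspan17 (0.878), Ptgr1 (0.876) and Jmjd6 (0.875).

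The overlapping neighbours did not follow their partners. BC017158, on the opposite strand of Slc5a2, was at 527 to 658 in con and 414 and 450 in con/STZ and was called lower (log2 change -0.43, adjusted p = 0.0345, limma), whereas Slc5a2 was called higher. Neither was called without con/STZ 1 or without con/STZ 2. Fam83g, opposite Slc5a10, was at 387 to 709 in con and 494 and 610 in con/STZ, with a log2 change of 0.07 (adjusted p = 0.830).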

How the data were processed

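RNA of kidney cortex was sequenced in 9 libraries, each from pooled RNA of 2 mice, so the errors given are between pools and hide the spread between mice. The authors prepared stranded poly(A) libraries, used Trim Galore 0.4 to trim reads, STAR 2.5.2b to align them to GRCm38, featureCounts 1.5.2 and StringTie 1.3.3b to count them per gene, and FastQC 0.11 and MultiQC 1.4 for quality control. Per gene and library, the authors deposited a signal value, a count after quantile normalization. It is no longer a read count, depth per library is unknown, and the normalization tool is not given in the sources used here. The authors' table also holds their fold changes and their p-values from DESeq2 1.26.0 in R 3.6.3, which were not used.

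Groups and replicate numbers were taken from the sample titles. The fit was made with limma 3.58.1 (R 4.3.3) on log2(value + 1), over the 14437 genes whose mean was at least 10, with 1 mean for each of the 4 groups, the mean-variance trend option and 5 residual degrees of freedom. Tests were two-sided, adjusted by Benjamini-Hochberg over all genes tested in each of 6 comparisons, and genes with an adjusted p under 0.05 count as called. Log2 changes are on the log2(value + 1) scale. The study's own test on counts could not be fitted to normalized values. The comparisons with con share its libraries. Lengths, the merged exon bases in GENCODE M21 (GRCm38), were matched for 18607 of 18657 genes, and 24 names that a spreadsheet had changed to dates were recovered by gene identifier.

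All 6 transporters were named, with, for each, the 3 genes of highest Pearson correlation of log2 values over the 9 libraries where the mean was 50 or more, and lists of other carriers, enzymes, partners and cell markers. The members and lists were chosen with earlier results of these data known. Some listed genes are not reported here. The fit was tested on simulated data. The alternatives tried were no filter, a pseudocount of 10, a mean of at least 50, median ratio rescaling, no trend, library weights, a replicate block, removal of each library's trend with gene length (loess, span 0.5), only the groups compared, a fold over 1.5, leaving out each library in turn and, chosen after seeing the data, leaving out con/STZ 2 and VHLΔPT/STZ 1 together. A lone library left in a group is assumed to vary like the other groups. Figures were drawn with Python 3.11.15 and matplotlib 3.10.9.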

Additional observations from a re-analysis of the deposited data

Results flagged for a closer look

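The glucose exit Slc2a2 was marked for a closer look because its genotype difference went opposite ways without and with STZ. Both VHLΔPT libraries (5130 and 5057) were above all con libraries (3190 to 3841), and both VHLΔPT/STZ libraries (4641 and 6122) were below both con/STZ libraries (6617 and 6126). The interaction was -0.77 on the log2 scale (standard error 0.19) with an adjusted p of 0.0642 (limma), so the difference between the genotype changes did not pass the test. The margin on the STZ side was small, 6122 against 6126. No other transporter had such opposite changes without overlap.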

How the results depend on the processing

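Of 678 log2 changes of the 6 transporters under alternatives, 613 kept their direction and their side of the threshold, 22 lost the call, 13 gained one and 30, all of changes that were not called, turned sign. The causes were not tested. The number of transporters called in con/STZ against con went from 4 to 2 without the mean-variance trend (Slc5a1 and Slc2a2) and ran from 1 to 4 when a library was left out. In VHLΔPT against con it went from 0 to 1 with library weights (Slc2a2) and ran from 0 to 1 with a library left out. In VHLΔPT/STZ against con it went from 0 to 1 with a mean of at least 50 (Slc2a2), ran from 0 to 3 with a library left out and was 2 without con/STZ 2 and VHLΔPT/STZ 1 together (Slc2a2 and Slc5a10). In VHLΔPT/STZ against VHLΔPT it ran from 0 to 2 with a library left out and was 1 without that pair (Slc5a10). The interaction had 1 with library weights (Slc2a2), and VHLΔPT/STZ against con/STZ had 0 throughout.

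Nothing in the labels ties replicate numbers together across groups. Deviations from the group means correlated at -0.109 to 0.273 in 12 same-numbered pairs, above 0.1 in 4. In a group of 2 libraries the deviations mirror each other, so these pairs are not all separate. Pairs between such groups gave the same value for both replicate numbers (0.273, -0.066 and 0.088). With a replicate block, 2 transporters were called in con/STZ against con (Slc2a2 and Slc5a10) and 0 in the other comparisons, and the interaction of Slc5a11 was -0.05.

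Signs turned as follows. Without con/STZ 2 and VHLΔPT/STZ 1 together, VHLΔPT/STZ against con/STZ gave 0.07 for Slc5a1, 0.06 for Slc5a10 and 0.21 for Slc5a11, the interaction gave 0.18 for Slc5a1 and 0.29 for Slc5a10, and Slc5a2 was at -0.02 in VHLΔPT/STZ against VHLΔPT. With the length trend removed, Slc5a2 was at -0.04 in that comparison and the interaction of Slc5a11 at -0.15. With a library left out, Slc2a5 ran from -1.10 to 0.05 in VHLΔPT against con. In VHLΔPT/STZ against con, Slc5a10 ran from -0.02 to 0.80, Slc5a11 from -0.07 to 0.60 and Slc2a5 from -0.15 to 0.16. Against con/STZ, Slc5a1 ran from -0.39 to 0.11, Slc5a10 from -0.70 to 0.11 and Slc5a11 from -0.44 to 0.23. Against VHLΔPT, Slc5a2 ran from -0.03 to 0.04, Slc2a2 from -0.13 to 0.27 and Slc2a5 from -0.05 to 1.10. The interaction ran from -0.27 to 0.22 for Slc5a1, from -0.47 to 0.35 for Slc5a10 and from -0.28 to 0.38 for Slc5a11.

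Over all genes, calls in VHLΔPT against con were 446, with 0 to 771 when a library was left out and 0 to 1363 under the other alternatives. In con/STZ they were 4082, with 1233 to 4322 and 2781 to 4729. In VHLΔPT/STZ against con they were 202 (1 to 437 and 1 to 431), and for the interaction 248 (0 to 707 and 0 to 582). Against con/STZ and against VHLΔPT there was 1 call each, with 0 to 3 and 0 to 211 when a library was left out. With the length trend removed, 2781 genes were called in con/STZ and 0 in VHLΔPT against con. Pools of 2 mice in groups of 2 or 3 libraries limit the precision.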

Other observations

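Enzymes of hexose metabolism that were not called spread widely between libraries of 1 group, and these were chosen after their values were seen. G6pc, the catalytic subunit of glucose-6-phosphatase, which frees glucose for export through GLUT2, was at 32884 in con 1 against 14362 and 12766 in the other con libraries, and at 25248 and 13492 in VHLΔPT/STZ. Pck1, a gluconeogenic enzyme, was likewise at 179848 in con 1 against 85143 and 94054.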
